A study of Mus musculus with 6 samples.

Results

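Vimentin, 2 cadherins and 7 transcription factors of the epithelial-mesenchymal transition (EMT) were examined in RENCA cells with and without forced expression of the water channel AQP1. The 10 genes, Vim, Cdh1, Cdh2, Snai1, Snai2, Twist1, Zeb1, Zeb2, Ovol1 and Grhl2, were selected by symbol from the 78298 genes of the deposited table, and each symbol matched 1 gene. The RENCA line derives from a mouse renal adenocarcinoma. The oe-AQP1 group (n = 3) received a lentivirus carrying AQP1 and the oe-NC group (n = 3) its negative control lentivirus, and both groups were then kept in 2 μg/mL puromycin for 14 days. All 6 samples therefore carry a lentivirus and a selection treatment, and each is bulk RNA from a selected population. The main fit held no batch term. Nothing states that the 3 samples of a group came from separate transductions, so the p-values below measure the spread between these samples, which may be technical. In bulk RNA, fewer cells that express a gene and less RNA per cell cannot be told apart.

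EMT is the program by which epithelial cells loosen their junctions and take on the filaments and motility of mesenchymal cells. In its textbook form E-cadherin (Cdh1) gives way to N-cadherin (Cdh2), vimentin (Vim) is gained, and the zinc-finger and helix-loop-helix factors of the Snail, Zeb and Twist families bind E-boxes in DNA and repress epithelial genes. Ovol1 and Grhl2 are epithelial transcription factors that oppose the Zeb genes. Kidney tumor cells often carry vimentin together with keratins.

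In oe-AQP1 cells Vim fell by 24.1% and Cdh1 fell by 45.1%, while the Zeb2 transcript was 31.1% higher and Zeb1 was 11.2% higher. The call of Zeb1 depended on the method and on which library was left out. Snai1 did not pass the test, Grhl2 was too low for a narrow estimate, Cdh2 and Ovol1 were near 0, and Snai2 and Twist1 had no count in any sample. Of the 10 genes, 6 passed the filter on low counts, and at a false discovery rate (FDR) under 0.05 2 of these were lower and 2 higher. Among all 15522 genes kept, 16.6% were lower and 16.0% higher at that threshold. None of the 6 passed the additional fold rule of an absolute log2 fold change (log2FC) above 1, which 5.23% of all genes kept passed. Tests are limma-voom with Benjamini-Hochberg adjustment over all genes kept, and every log2FC is oe-AQP1 minus oe-NC, so a negative value is lower in oe-AQP1.

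The start of 4 of the 10 genes, Vim, Snai1, Twist1 and Zeb2, could be read from RefSeq promoter windows (mouse build GRCm38.p6), and 3 are shown because these genes were expressed and span the 3 outcomes of the comparison: lower, not called and higher. Each is the 250 bases before the start site, 5′ to 3′ on the gene's strand, at chr2:13574061-13574310 (plus strand) for Vim, chr2:167537945-167538194 (plus strand) for Snai1 and chr2:45117443-45117692 (minus strand) for Zeb2, whose table entry has 4 windows with the first one printed. Capitals mark the E-box CACCTG, searched on both strands as CACCTG or CAGGTG.
Vim: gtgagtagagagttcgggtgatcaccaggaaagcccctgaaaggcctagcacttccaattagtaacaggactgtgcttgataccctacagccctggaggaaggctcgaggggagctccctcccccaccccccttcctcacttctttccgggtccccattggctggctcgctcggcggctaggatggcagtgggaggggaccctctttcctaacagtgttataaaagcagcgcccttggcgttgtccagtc
Snai1: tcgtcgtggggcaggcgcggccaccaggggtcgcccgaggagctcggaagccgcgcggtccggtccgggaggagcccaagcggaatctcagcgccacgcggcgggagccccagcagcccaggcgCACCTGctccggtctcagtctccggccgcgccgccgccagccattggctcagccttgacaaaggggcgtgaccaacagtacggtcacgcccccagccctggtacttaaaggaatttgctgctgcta
Zeb2: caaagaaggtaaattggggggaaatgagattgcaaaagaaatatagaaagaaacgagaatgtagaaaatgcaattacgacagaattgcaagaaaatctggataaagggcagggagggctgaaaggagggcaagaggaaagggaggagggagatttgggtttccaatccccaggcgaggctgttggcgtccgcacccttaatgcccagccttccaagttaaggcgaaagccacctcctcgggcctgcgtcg
The only match in the 7 windows of the 4 genes was in Snai1, beginning at position -126 from its start. Over all promoters of the RefSeq set, 17.2% of 32851 windows of the same length held a match. This is a description of letters in these windows and carries no statement on binding.

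The depth was 18385714 to 21920899 expected counts per sample. Aqp1, the forced gene, had 7713, 8545 and 7838 counts in oe-AQP1 samples 1 to 3 and 41, 25 and 45 in oe-NC samples 1 to 3, the direction that the labels give. The library oe-NC 1 stood apart from the other oe-NC libraries, with a chi-square per gene of 9.54 and 11.1 against them, where every other pair within a group lay between 1.71 and 2.04. Without it the log2FC was -0.34 for Vim, -0.83 for Cdh1, 0.08 for Snai1, 0.19 for Zeb1, 0.40 for Zeb2 and 0.28 for Grhl2, and Vim, Cdh1, Zeb1 and Zeb2 kept their calls by limma-voom. The renal epithelial identity of the cells was visible in Pax8 (3054 to 3630 counts), Krt8, Krt18 and Cdh16, but Epcam and Cdh6 had 0 counts in every sample.

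**Figure D1:**
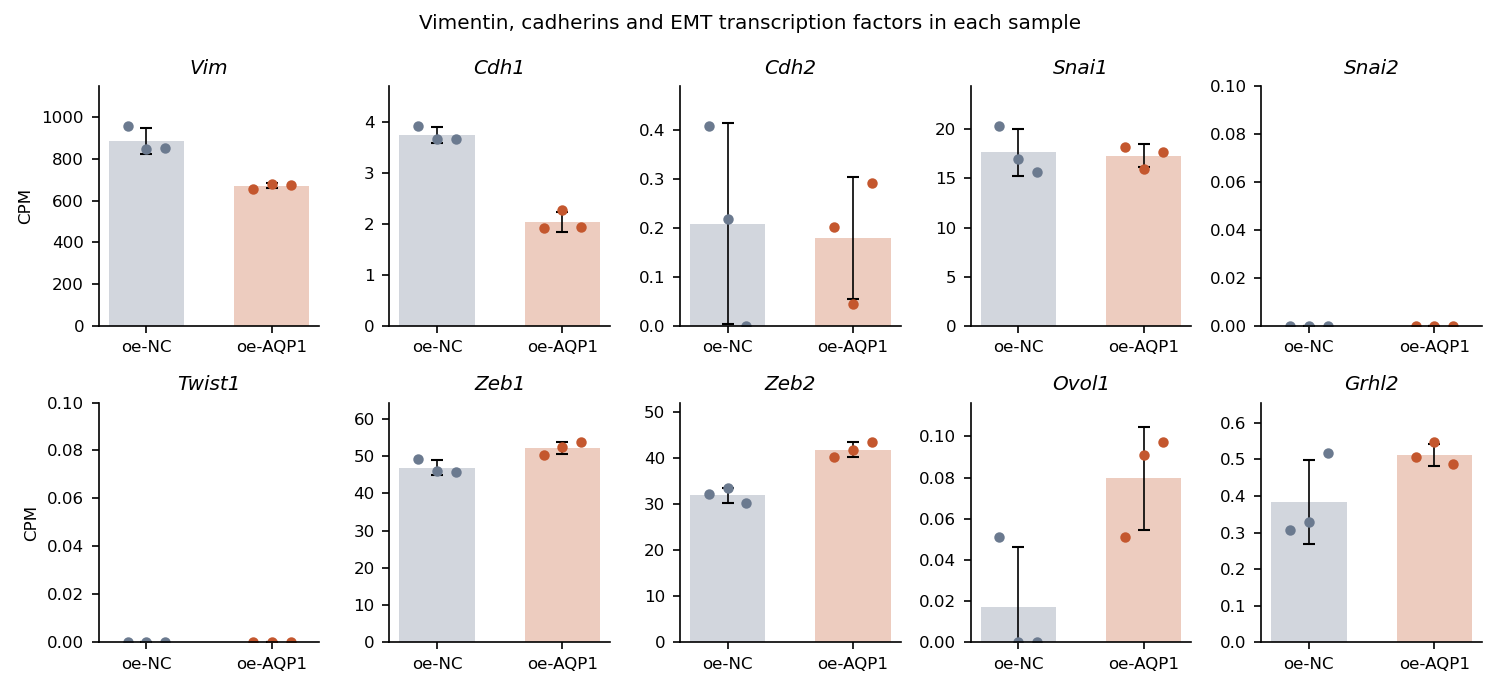
Level of each of the 10 genes in CPM, which are counts scaled to the size of each library (vertical axes starting at 0, each panel with its own scale), by group; points are the 3 samples in the order 1 to 3, bars the group mean and error bars the SD. Vim and Cdh1 lie lower and Zeb1 and Zeb2 higher in every oe-AQP1 sample than in every oe-NC sample, and Snai2 and Twist1 are at 0 throughout. Such separation, in either direction, held for 47.3% of all genes kept.

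Vimentin, the type III intermediate filament protein of mesenchymal cells (Vim, ENSMUSG00000026728, chromosome 2, 13578738 to 13587639, plus strand), was by far the most abundant of the 10. Positions are from GENCODE M39 on GRCm39. Its level was 657, 681 and 676 CPM in oe-AQP1 samples 1 to 3 and 958, 849 and 852 CPM in oe-NC samples 1 to 3. The 3 oe-AQP1 samples lay close together and all below the oe-NC samples, of which oe-NC 1 was the highest. The mean was 671.3 ± 12.5 CPM (SD, n = 3) against 886.3 ± 62.5 CPM (SD, n = 3), a log2FC of -0.40 (95% interval -0.50 to -0.29, FDR = 0.000139 by limma-voom). Leaving out any 1 library gave log2FC values between -0.43 and -0.34. Vim ranked 167th of 15499 genes by CPM per kilobase (kb) of exon in oe-NC cells (186.5 CPM per kb), so it remained an abundant transcript in oe-AQP1 cells (141.3 CPM per kb). Its expected counts were not whole numbers in 5 samples, which happens when a counter divides reads between genes. Its exons share 586 bases with the opposite-strand non-coding gene Gm54102, which had 10 to 27.3 counts, against at least 12995 for Vim.

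Of the cadherins, the calcium-dependent adhesion proteins of cell junctions, E-cadherin (Cdh1, ENSMUSG00000000303, chromosome 8, 107329941 to 107396880, plus strand) had 38, 50 and 40 counts in oe-AQP1 samples 1 to 3 and 77, 67 and 78 in oe-NC samples 1 to 3. The groups did not overlap, and all values were small. In CPM the means were 2.05 ± 0.20 (SD, n = 3) and 3.75 ± 0.15 (SD, n = 3), a log2FC of -0.86 (95% interval -1.20 to -0.53, FDR = 0.00173 by limma-voom), with -0.95 to -0.82 when any 1 library was left out. N-cadherin (Cdh2, ENSMUSG00000024304, chromosome 18, 16700793 to 16942381, minus strand), the cadherin of mesenchymal and neural cells, had 4, 1 and 6 counts in oe-AQP1 samples 1 to 3 and 8, 4 and 0 in oe-NC samples 1 to 3. These overlapped, and Cdh2 did not pass the filter. In a fit without the filter (34240 genes) its log2FC was 0.35 with a standard error of 0.94 (limma-voom, FDR = 0.848). The mean level was 0.18 CPM in oe-AQP1 and 0.21 CPM in oe-NC samples, so no direction can be read. Both E-cadherin and N-cadherin were therefore low in these cells.

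Among the genes with a Cdh symbol examined here, the most abundant in CPM were Cdh16 and Cdh3 (P-cadherin). Cdh16 is the kidney-specific cadherin of tubule epithelium, and Cdh3 was named after its values had been seen. Other Cdh genes were not ranked. Cdh16 fell from 169.2 ± 9.74 to 109.5 ± 0.609 CPM (SD, n = 3 each), a log2FC of -0.63 (FDR = 4.63e-06 by limma-voom). Cdh3 fell from 144.8 ± 10.8 to 114.8 ± 1.72 CPM (SD, n = 3 each), a log2FC of -0.33 (FDR = 0.00102 by limma-voom). In each sample the count of Cdh3 was 50.7 to 60.4 times that of Cdh1 in oe-AQP1 cells and 37.7 to 40.1 times in oe-NC cells. Per kb of exon, oe-NC cells had 40.7 CPM of Cdh16, 22.02 of Cdh3 and 0.808 of Cdh1, an order that also held in oe-AQP1 cells (26.3, 17.5 and 0.441). Since Vim fell less than Cdh1, the ratio of the 2 counts rose, from 231 to 244 in oe-NC samples to 299 to 347 in oe-AQP1 samples; no test was made of these ratios.

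**Figure D2:**
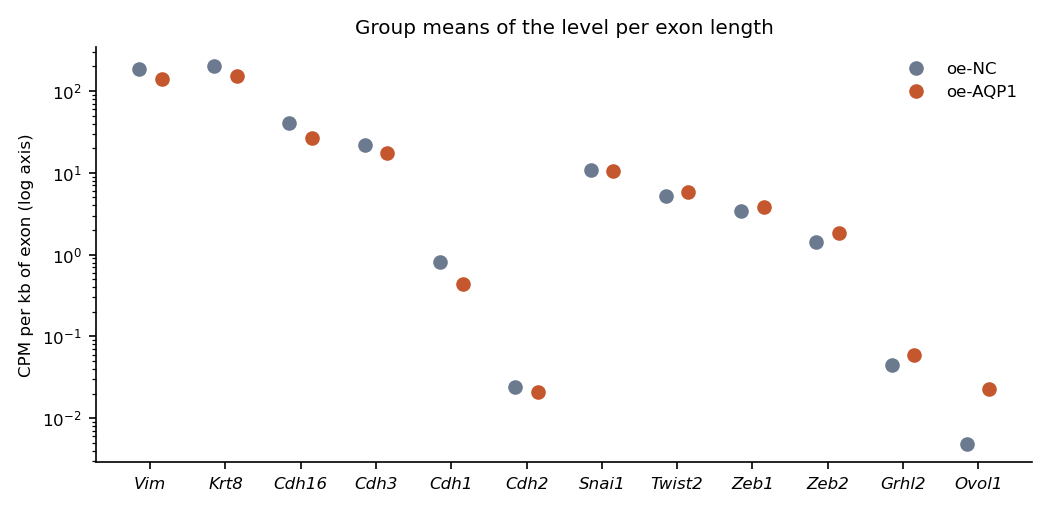
Group mean of the level in CPM per kb of exon (log axis) for 8 of the 10 genes and for Krt8, Cdh16, Cdh3 and Twist2, in oe-NC and oe-AQP1 cells (n = 3 each). Vim and the keratin Krt8 lie between 141.3 and 202.6, Cdh16 and Cdh3 far above Cdh1, and Cdh2, Grhl2 and Ovol1 below 0.1; Snai2 and Twist1 are at 0 and cannot be drawn on a log axis.

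Snail (Snai1, ENSMUSG00000042821, chromosome 2, 167380113 to 167384734, plus strand), the zinc-finger repressor best known for silencing E-cadherin, had 18.2, 16.0 and 17.7 CPM in oe-AQP1 samples 1 to 3 and 20.3, 17.0 and 15.7 CPM in oe-NC samples 1 to 3. The groups overlapped. Its log2FC was -0.03 (95% interval -0.25 to 0.20, FDR = 0.877 by limma-voom), an interval that leaves room for a change of up to 15.9% down or 14.9% up. The highest value came from oe-NC 1, and without that library the log2FC was 0.08. Slug (Snai2, ENSMUSG00000022676, chromosome 16, 14523425 to 14527252, plus strand) and Twist1 (ENSMUSG00000035799, chromosome 12, 34007645 to 34009828, plus strand) had 0 counts in 6 of 6 samples, which allows up to 3 counts, or 0.137 to 0.163 CPM, in a sample. This limit covers counting error only. Twist2, the paralog of Twist1 and named after its values had been seen, was expressed at 32.0 ± 1.12 CPM in oe-AQP1 and 28.6 ± 2.56 CPM in oe-NC cells (SD, n = 3 each), with a log2FC of 0.17 (FDR = 0.0972 by limma-voom). With any 1 library left out its log2FC lay between 0.10 and 0.24 (FDR = 0.00318 to 0.309 by limma-voom).

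Zeb1 and Zeb2 are paired zinc-finger homeodomain factors that repress epithelial genes such as Cdh1 and the miR-200 family. Zeb2 (ENSMUSG00000026872, chromosome 2, 44873644 to 45007464, minus strand) had 40.3, 41.8 and 43.4 CPM in oe-AQP1 samples 1 to 3 and 32.2, 33.5 and 30.3 CPM in oe-NC samples 1 to 3. All oe-AQP1 values lay above all oe-NC values. The means were 41.8 ± 1.54 and 32.0 ± 1.62 CPM (SD, n = 3 each), a log2FC of 0.39 (95% interval 0.26 to 0.52, FDR = 0.000594 by limma-voom), and 0.35 to 0.42 with any 1 library left out.

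Zeb1 (ENSMUSG00000024238, chromosome 18, 5591851 to 5775467, plus strand) moved the same way by less. It had 50.3, 52.5 and 53.6 CPM in oe-AQP1 samples 1 to 3 and 49.2, 45.9 and 45.6 CPM in oe-NC samples 1 to 3, without overlap but with oe-NC 1 close to the lowest oe-AQP1 sample. The log2FC was 0.15 (95% interval 0.04 to 0.27, FDR = 0.0451 by limma-voom). The call was lost with DESeq2 (FDR = 0.123) and when oe-AQP1 1, 2 or 3 (FDR = 0.0667, 0.138 and 0.163 by limma-voom) or oe-NC 2 or 3 (FDR = 0.131 and 0.134 by limma-voom) was left out. Within samples the count of Zeb2 was 0.797 to 0.809 times that of Zeb1 in oe-AQP1 cells and 0.654 to 0.729 times in oe-NC cells.

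Zeb2 shares 871 bases of exon with the non-coding gene Zeb2os on the opposite strand. Zeb2os had 29, 38 and 49 counts in oe-AQP1 samples 1 to 3 and 14, 15 and 23 in oe-NC samples 1 to 3, and did not overlap between groups (log2FC = 1.06, FDR = 0.0145 by limma-voom). The call was lost without oe-AQP1 3 (FDR = 0.0524 by limma-voom) or oe-NC 2 (FDR = 0.0511 by limma-voom). It was chosen for its position and not by its value. Whether strand was used in counting is not stated, so reads of the shared stretch cannot be assigned to one of the genes; Zeb2 had 18.2 to 45.1 times the counts of Zeb2os. Zeb1 shares 198 bases with Zeb1os1 (10.4 to 22.9 counts), whose groups overlapped.

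Ovol1 and Grhl2, the epithelial side of the circuit, were scarce. Grhl2 (ENSMUSG00000022286, chromosome 15, 37233280 to 37363813, plus strand), a grainyhead factor that activates Cdh1, had 10.2, 12.0 and 10 counts in oe-AQP1 samples 1 to 3 and 6, 6.01 and 11.1 in oe-NC samples 1 to 3. Its groups overlapped because of oe-NC 3, and the log2FC was 0.42 with a wide 95% interval of -0.32 to 1.15 (FDR = 0.373 by limma-voom). Its exons share 75 bases with Ncald on the opposite strand, which had more counts (31.3 to 73.5). Ncald was lower in oe-AQP1 cells (log2FC = -0.87, FDR = 0.0122 by limma-voom). Ovol1 (ENSMUSG00000024922, chromosome 19, 5599164 to 5610674, minus strand), a zinc-finger factor, had 1, 2.07 and 2.03 counts in oe-AQP1 samples 1 to 3 and 1, 0 and 0 in oe-NC samples 1 to 3. It was under the filter, had an FDR of 0.228 in the limma-voom fit without the filter, and shares 696 bases of exon with Gm59143 on the opposite strand, which had 69 to 105 counts. No fold is given for Ovol1, since every sample was under 3 counts.

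**Figure D3:**
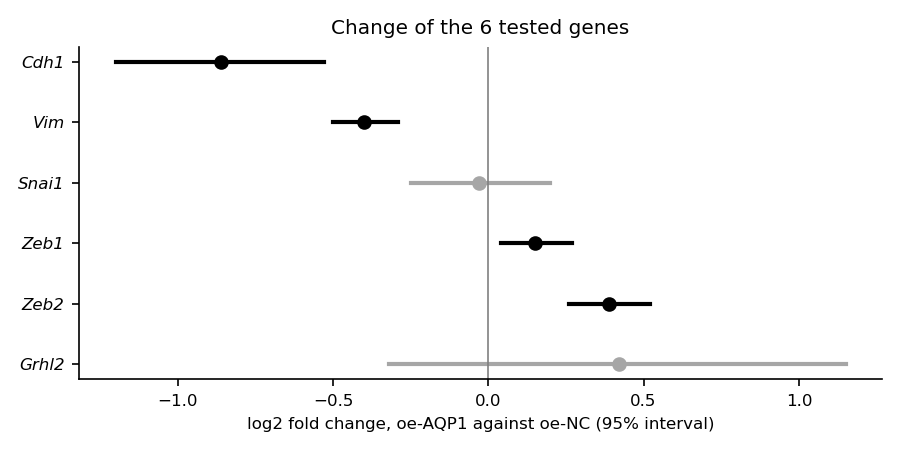
Log2 fold change of the 6 genes that passed the filter, oe-AQP1 against oe-NC (horizontal axis), with points for the estimate and lines for its 95% interval; black marks an FDR under 0.05 and grey an FDR above it. The intervals of Cdh1 and Vim lie below 0, those of Zeb1 and Zeb2 above 0, and those of Snai1 and Grhl2 include 0.

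Ordered by level per kb of exon in oe-NC cells, the 10 genes ran Vim (186.5 CPM per kb), Snai1 (10.9), Zeb1 (3.44), Zeb2 (1.41), Cdh1 (0.808), Grhl2 (0.0445), Cdh2 (0.0241) and Ovol1 (0.0049), with Snai2 and Twist1 at 0. Grhl2 and Cdh2, and Cdh2 and Ovol1, did not differ beyond the spread of their samples. The first 6 kept this order in oe-AQP1 cells. Levels per length depend on the length taken: Zeb2 has 22741 bases of merged exon but a canonical transcript of 6031 bases. With canonical lengths, an alternative chosen after seeing the data, Zeb2 was at 5.30 and Zeb1 at 8.09 CPM per kb and still below Snai1 (10.9), whereas Twist2 moved from 5.13 to 21.4 and so from below Snai1 to above it. Of the 6 genes tested, 4 did not overlap between the groups in CPM, a pattern that 47.3% of all genes kept also had.

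Around the 10 genes, 8 lists of genes with related roles held 130 genes, of which 91 passed the filter. At an FDR under 0.05 (limma-voom) 35 of these were lower and 9 higher, 38.5% and 9.9%, against 16.6% and 16.0% of all genes kept. Without oe-NC 1, 37 were lower and 13 higher. The median log2FC of the 91 was -0.13, against 0.00 over all genes kept. The lists were chosen with earlier results of these data known, and their counts are descriptions.

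**Figure D4:**
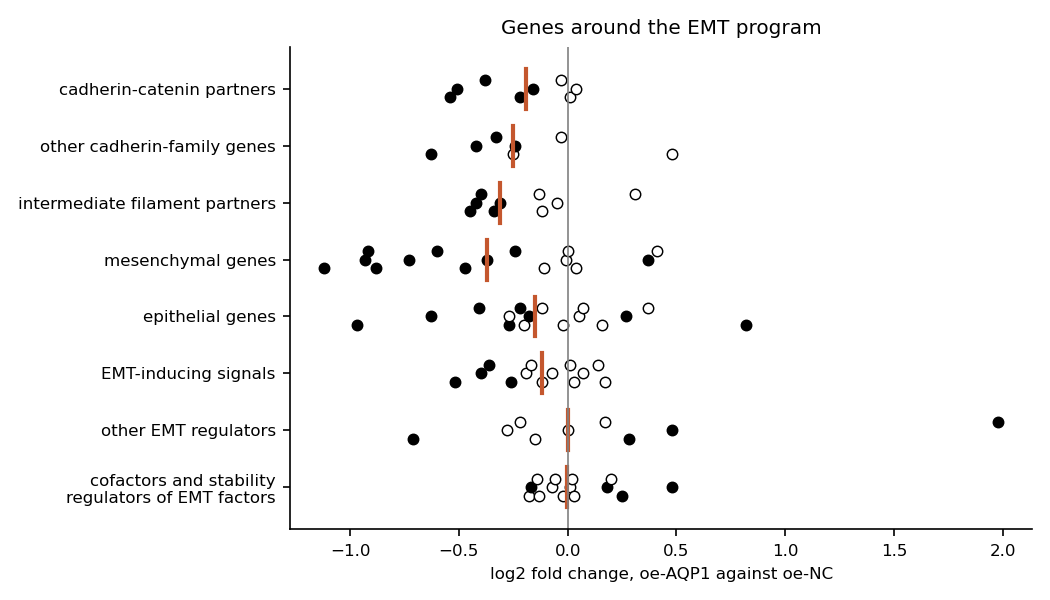
Log2 fold change, oe-AQP1 against oe-NC (horizontal axis), of the genes that passed the filter in each of 8 lists; filled points have an FDR under 0.05, open points do not, the orange line is the list median and the vertical spread within a list only separates points. Cadherin partners, other cadherin-family genes, filament partners, mesenchymal genes, epithelial genes and EMT-inducing signals have most filled points to the left of 0. The other EMT regulators and the cofactors have them on both sides.

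The junction partners of the cadherins were lower or did not pass. Of 9 cadherin-catenin partners 8 were kept, 5 were lower and none was higher (none at an unadjusted p under 0.05 by limma-voom, and none by edgeR or DESeq2), with a median log2FC of -0.19. Those lower were 62.5% of the 8, against 16.6% lower and 16.0% higher among all genes kept. The adhesion receptor Nectin1 fell most, from 30.8 ± 3.36 to 21.1 ± 0.936 CPM (SD, n = 3 each; log2FC = -0.54, FDR = 0.000769 by limma-voom). Afdn, the junction adaptor afadin that binds nectins, had the smallest drop among those called (log2FC = -0.16, FDR = 0.0146 by limma-voom), a call lost without oe-AQP1 1 (FDR = 0.0821) or oe-AQP1 2 (FDR = 0.0601). Ctnnb1, β-catenin, the most abundant of them and a link of cadherins to the cytoskeleton and to Wnt signaling, had a log2FC of 0.01 (FDR = 0.817 by limma-voom).

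Of 15 other cadherin-family genes 7 were kept, 4 were lower and none higher (none at an unadjusted p under 0.05, and none by edgeR or DESeq2), with a median log2FC of -0.25. The 4 lower genes were 57.1% of the 7, against 16.6% lower and 16.0% higher among all genes kept. Beside Cdh16 and Cdh3 these were the giant cadherin Fat1 (log2FC = -0.42, FDR = 0.000271 by limma-voom), the most abundant of the list in CPM, and the protocadherin Pcdh1 (log2FC = -0.24, FDR = 0.0172 by limma-voom). The call of Pcdh1 was lost without oe-AQP1 2 (FDR = 0.0767) or oe-AQP1 3 (FDR = 0.0566). The list holds Cdh4, Cdh5, Cdh6, Cdh11 and Cdh13, all with at most 2 counts in any sample.

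Vimentin's filament partners were lower or did not pass. Of 10 intermediate filament and linker genes 9 were kept, 5 were lower and none higher (none at an unadjusted p under 0.05, and none by edgeR or DESeq2), with a median log2FC of -0.31. Those lower were 55.6% of the 9, against 16.6% lower and 16.0% higher among all genes kept. Plec, plectin, which ties vimentin filaments to other parts of the cytoskeleton, had the largest drop (log2FC = -0.45, FDR = 0.00744 by limma-voom). Its oe-NC samples were uneven, with 6077, 4387 and 4696 counts in samples 1 to 3, and with any 1 library left out its log2FC lay between -0.55 and -0.30. Lmnb1, lamin B1 of the nuclear lamina, had the smallest drop called (log2FC = -0.31, FDR = 0.00453 by limma-voom), and Dst, the linker protein dystonin, was the most abundant in CPM (log2FC = -0.34, FDR = 0.000678 by limma-voom).

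The mesenchymal genes were mostly lower: of 22, 15 were kept, 9 were lower and 1 was higher, with a median log2FC of -0.37. Lox, lysyl oxidase, which cross-links collagen, fell from 43.4 ± 1.503 to 20.0 ± 0.898 CPM (SD, n = 3 each; log2FC = -1.12, FDR = 3.33e-07 by limma-voom). Itgb1, the integrin β1 subunit and the most abundant of the list, had a log2FC of -0.37 (FDR = 7.7e-05 by limma-voom). Axl, a receptor tyrosine kinase, rose, from 108.1 ± 7.90 to 139.5 ± 1.31 CPM (SD, n = 3 each; log2FC = 0.37, FDR = 0.000405 by limma-voom). Without oe-NC 1 a second gene of the list was called higher (2 in all). Of the classical EMT transcripts of this list Fn1, Acta2, Tagln, Col3a1 and Postn were too low to test.

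More epithelial genes were called lower than higher, and the higher calls depended on the fit. Of 23, 16 were kept, 6 were lower and 2 higher, with a median log2FC of -0.15. As shares of those kept these were 37.5% and 12.5%, against 16.6% lower and 16.0% higher among all genes kept. Krt8, a simple epithelial keratin and the most abundant of the list, fell from 396.6 ± 22.5 to 298.8 ± 3.04 CPM (SD, n = 3 each; log2FC = -0.41, FDR = 6.43e-05 by limma-voom), beside -0.40 for Vim. Marveld2, tricellulin of the tight junction, was called higher (log2FC = 0.82, FDR = 0.0253 by limma-voom) and Krt19 lower (log2FC = -0.97, FDR = 0.0403 by limma-voom), both at 10 to 38 counts. Both calls were lost with DESeq2 (FDR = 0.0909 and 0.0987). Among the 6 fits that left out 1 library, Marveld2 kept its call only without oe-NC 1 (FDR = 0.0576 to 0.0937 in the others by limma-voom), and Krt19 only without oe-NC 3 (FDR = 0.0932 to 0.144 in the others by limma-voom). No epithelial gene was called higher by DESeq2 or without oe-AQP1 1, 2 or 3, 1 was without oe-NC 3, 3 were without oe-NC 1, and 2 rather than 6 were lower without oe-AQP1 2.

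Of 22 other EMT regulators 9 were kept, 3 were higher (4 without oe-NC 1) and 1 lower, with a median log2FC of 0.00. The calls were 33.3% and 11.1% of those kept, against 16.0% higher and 16.6% lower among all genes kept. Prrx2, a homeobox factor of mesenchyme, had 18, 27 and 17 counts in oe-AQP1 samples 1 to 3 and 7, 2 and 6 in oe-NC samples 1 to 3 (log2FC = 1.98, 1.56 to 2.27 with any 1 library left out, FDR = 0.00468 by limma-voom). Tcf4, a helix-loop-helix E protein named after its values had been seen, rose from 26.6 ± 1.48 to 37.1 ± 0.279 CPM (SD, n = 3 each; log2FC = 0.48, FDR = 0.000146 by limma-voom). The third was Grhl1, named after its value was seen (log2FC = 0.28, FDR = 0.0288 by limma-voom), whose call was lost with DESeq2 (FDR = 0.115) and without oe-AQP1 1 or 2 or oe-NC 2 or 3 (FDR = 0.0604 to 0.111 by limma-voom). Esrp2, an epithelial splicing regulator, fell from 13.5 ± 0.858 to 8.22 ± 0.738 CPM (SD, n = 3 each; log2FC = -0.71, FDR = 0.000313 by limma-voom), and its counts were not whole in 6 samples. Tcf3, the most abundant of the list and an E protein, had a log2FC of -0.22 (FDR = 0.148 by limma-voom).

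All 14 cofactors and stability regulators of the EMT factors were kept, and 3 were higher and 1 lower. These were 21.4% and 7.1% of the list, against 16.0% higher and 16.6% lower among all genes kept. Btrc, the ubiquitin ligase subunit β-TrCP that marks Snail for degradation, rose from 21.6 ± 0.999 to 30.2 ± 1.63 CPM (SD, n = 3 each; log2FC = 0.48, FDR = 0.00034 by limma-voom). Gsk3b, the kinase that phosphorylates Snail for this step, was lower (log2FC = -0.17, FDR = 0.0085 by limma-voom). It was the most abundant of the list in CPM, but not per kb of exon. The number called lower was 3 without oe-NC 1 or with sample quality weights. It was 2 without oe-NC 2 or oe-NC 3, with DESeq2, without the filter or with a replicate block.

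Among 15 signals that can induce EMT 13 were kept, 4 were lower and none was higher (1 at an unadjusted p under 0.05 by limma-voom, none by edgeR or DESeq2), with a median log2FC of -0.12. Those lower were 30.8% of the 13, against 16.6% lower and 16.0% higher among all genes kept. Met, the receptor of hepatocyte growth factor, had the largest drop (log2FC = -0.52, FDR = 0.000338 by limma-voom) and Tgfb3, a TGF-β ligand, the smallest among those called (log2FC = -0.26, FDR = 0.00443 by limma-voom). Notch2, the most abundant in CPM but not per kb of exon, had a log2FC of -0.12 (FDR = 0.0922 by limma-voom). Without oe-NC 3 the number called lower was 7, and without oe-NC 1 1 gene was called higher. Tgfbr2 had at most 5 counts in any sample.

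Vimentin is also made by leukocytes, fibroblasts and endothelial cells, so markers of these were read beside it. Of 9 leukocyte markers 4 were kept, 2 were lower (Csf1r and Lyz2, log2FC = -1.51 and -0.52) and none was higher; their summed level was 59.1 to 62.3 CPM in oe-AQP1 and 69.4 to 71.3 CPM in oe-NC samples, led by Cd68, while Ptprc had at most 3 counts and Adgre1 was at 0. Of 7 fibroblast markers 2 were kept, Pdgfrb being higher and Col1a1 lower (log2FC = 0.34 and -0.73), with sums of 56.0 to 58.0 and 51.1 to 65.1 CPM, Pdgfra, Dcn and Lum at most 1 count and Thy1 at 0. Of 5 endothelial markers 2 were kept (the most abundant Pecam1) and none was called, with sums of 2.02 to 2.87 and 1.86 to 2.39 CPM and Kdr at 0. Of 10 renal epithelial markers 8 were kept, 3 were lower (Krt8, Krt18 and Cdh16) and none higher, with sums of 831 to 861 and 1002 to 1112 CPM. Of those kept, 50.0% of the leukocyte and 37.5% of the renal epithelial markers were lower. Over all genes kept, 16.6% were lower and 16.0% higher. The part of these markers in the results above was not tested.

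The genes with the pattern most like that of Vim over the 6 samples, by Pearson's r of log2 CPM among 9754 genes with a mean of at least 10 CPM, were Ube3b (r = 0.9995), Fbln2 (r = 0.9989), Depdc5 (r = 0.9987), Tspan9 (r = 0.9986) and Atp2a2 (r = 0.9983). For Cdh1, among 9755 genes, they were Parva (r = 0.9986), Dock9 (r = 0.9982), Aldh9a1 (r = 0.9980), Focad (r = 0.9977) and Dym (r = 0.9973). With 6 samples in 2 groups such values mostly mirror the group difference: 894 genes had an r above 0.95 with Vim and 818 with Cdh1.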

How the data were processed

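Bulk RNA of 6 RENCA samples, 3 oe-AQP1 and 3 oe-NC, was measured by paired-end TruSeq sequencing. The authors deposited expected counts per gene, unscaled and partly fractional; their 2 columns of group means were not used here. The submitters' processing notes name fastp, HISAT2, featureCounts and Subread with GRCm38 and mm10, whereas the methods of the study give GRCm39; versions, strand setting and the build of the counts are not given in the sources used here. Of 78298 genes, 78168 were found in GENCODE M39 (GRCm39), the source of positions and lengths.

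Counts were rounded and fitted with limma-voom (limma 3.58.1, edgeR 4.0.16, R 4.3.3; TMM scaling, filterByExpr by group), the model the study states. The alternatives tried were DESeq2 1.42.0, the quasi-likelihood test of edgeR, sample quality weights, other scalings and filters, unrounded counts, a replicate block and leaving out each library. The code was tested on simulated data. CPM used TMM-scaled totals, and levels per kb the merged exon length.

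The members and lists were chosen with earlier results of these data known. Named were all 10 members and Aqp1. From each list, the called genes with the largest and smallest log2FC and the gene with the highest mean CPM were named. So were the gene with the highest mean CPM in each marker list and the 5 genes most like Vim and Cdh1 in pattern. Others are marked.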

Additional observations from a re-analysis of the deposited data

How the results depend on the processing

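The number of the 10 genes called lower was 2 in every fit, and 0 when an absolute log2FC above 1 was also required, as was the number called higher. The number called higher fell from 2 to 1, by the loss of Zeb1, with DESeq2, without the filter and with a replicate block, and lay between 1 and 2 when 1 library was left out. Snai1 changed sign with sample quality weights (log2FC = 0.04), without oe-AQP1 2 (0.03) and without oe-NC 1 (0.08), lay between -0.12 and 0.08 when 1 library was left out, and was not called in any fit. The cause of these shifts was not tested. Of the genes in the 8 lists 29 to 40 were lower and 6 to 13 higher over the fits other than the fold rule.

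Same-numbered samples of the groups correlated in their deviations at r = 0.01, -0.02 and -0.07, so no effect shared by number was seen. Whether same-numbered samples were prepared together cannot be told from these values. With the replicate block the calls over all genes kept were 2346 higher and 2479 lower, against 2481 and 2569 without it. Each oe-NC sample correlated best with an oe-AQP1 sample of another number. Depth limited Grhl2, Cdh2 and Ovol1, with at most 12.0 counts in a sample. Quality weights raised the calls to 3115 higher and 3315 lower, and DESeq2 gave 1974 and 2173.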
